A study of Mus musculus with 14 samples.

Results

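Glucose enters a cell through facilitative transporters of the SLC2A (GLUT) family and is phosphorylated by hexokinases, which keeps it in the cell. Glycolysis then splits it into pyruvate, with phosphofructokinase, aldolase, phosphoglycerate kinase and pyruvate kinase among its enzymes. Pyruvate is reduced to lactate by lactate dehydrogenase or enters the mitochondria, where pyruvate dehydrogenase kinases restrain its oxidation, and pluripotent stem cells are known for a high glycolytic rate that changes with their state. Described here are 10 genes of this route, taken by symbol from the 16181 protein-coding genes that the deposited CPM table lists: the glucose transporters Slc2a1 (GLUT1) and Slc2a3 (GLUT3), the hexokinases Hk1 and Hk2, the enzymes Pfkp, Aldoa, Pgk1 and Pkm, the lactate dehydrogenase gene Ldha and the pyruvate dehydrogenase kinase gene Pdk1. All 10 were found, each as 1 gene.

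PolyA RNA was sequenced from mouse embryonic stem cells (ESCs) that stably carry a short hairpin RNA, either shLacZ against bacterial lacZ as the control or shDis3l2 against Dis3l2, the gene of an exoribonuclease that degrades oligouridylated RNAs. The ESC line carries an Osr1-GFP reporter of the renal lineage. Day 0 (d0) is the undifferentiated culture in LIF and 2i, a cytokine and a pair of kinase inhibitors that hold ESCs in a naive state. Both were then withdrawn, embryoid bodies (EBs, aggregates that differentiate spontaneously) were formed in hanging drops with serum, and EBs were collected every other day from d2 to d12. There is 1 library for each line and day, 14 in all, from 1 hairpin line each, so a value of 1 day has no replicate and the sources name no separate cultures.

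Counts per library ran from 7178712 to 39888099, and the depths of the 2 libraries of a day differed most at d4, by 2.88-fold. Levels are given as the deposited CPM, counts scaled to the library's total on the listed genes. In libraries labelled shDis3l2, Dis3l2 itself was at 5.23 CPM at d0 against 36.7 CPM in shLacZ, a ratio of 0.143 with a 95% Clopper-Pearson interval of 0.115 to 0.174. The ratio rose to 0.551 at d6, was 0.969 (0.835 to 1.12) at d8 and 0.950 (0.788 to 1.15) at d10, and stood at 0.754 at d12. At d8 and d10 the target gene therefore did not separate the libraries, and each direction below is between libraries by their labels. The d0 libraries differ from the others in composition. From d0 to d2 the median log2 CPM of all genes compared moved by +0.36 in shLacZ and +0.59 in shDis3l2, but by -0.10 and -0.03 with TMM scaling (trimmed mean of M values, which aligns the bulk of genes between libraries), so tests between days used TMM.

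Intervals given for 1 library or 1 pair of libraries cover counting error only. They treat reads as independent, so they can be too narrow where reads were copied by PCR and not tagged by molecule. For tests, edgeR's quasi-likelihood test was fitted on the counts of all genes with day and line as terms, and a gene was called at a Benjamini-Hochberg adjusted p under 0.05 over all genes tested. Since each line has 1 library per day, the days of 1 series stand in for replicates, and p-values measure the spread between these libraries and not between independent cultures.

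The promoter sequences of 4 of the genes are shown because 3 of them (Slc2a1, Ldha and Pdk1) were the members called higher at d2 than at d0, and the fourth, Hk1, had the largest drop in that step. Each is a RefSeq window on GRCm38.p6 of 250 bases before and 50 from the annotated start on, 5′ to 3′ on the strand of the gene. Capitals mark ACGTG and GCGTG on either strand, the core letters to which hypoxia-inducible factors (HIF) are known to bind, in which a CACGTG holds an ACGTG on each strand. The windows are chr4:119108495-119108794 on the plus strand for Slc2a1, chr7:46845554-46845853 on the plus strand for Ldha, chr2:71872974-71873273 on the plus strand for Pdk1 and chr10:62379859-62380158 on the minus strand for Hk1.
Slc2a1: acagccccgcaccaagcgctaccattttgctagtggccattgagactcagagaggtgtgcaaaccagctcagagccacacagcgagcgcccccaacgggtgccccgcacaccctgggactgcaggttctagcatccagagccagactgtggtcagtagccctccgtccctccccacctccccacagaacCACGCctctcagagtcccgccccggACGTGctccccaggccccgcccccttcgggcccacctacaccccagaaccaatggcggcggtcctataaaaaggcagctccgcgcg
Ldha: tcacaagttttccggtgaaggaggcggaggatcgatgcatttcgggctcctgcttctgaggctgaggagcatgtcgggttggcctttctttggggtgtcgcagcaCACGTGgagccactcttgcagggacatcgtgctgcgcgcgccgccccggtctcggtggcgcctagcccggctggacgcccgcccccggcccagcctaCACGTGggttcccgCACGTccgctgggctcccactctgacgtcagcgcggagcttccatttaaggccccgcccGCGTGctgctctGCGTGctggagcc
Pdk1: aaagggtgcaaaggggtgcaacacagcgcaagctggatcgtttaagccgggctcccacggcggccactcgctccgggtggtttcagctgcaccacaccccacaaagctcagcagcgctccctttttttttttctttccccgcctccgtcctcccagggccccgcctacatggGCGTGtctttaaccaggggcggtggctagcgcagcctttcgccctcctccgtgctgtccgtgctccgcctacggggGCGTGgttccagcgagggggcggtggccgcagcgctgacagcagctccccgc
Hk1: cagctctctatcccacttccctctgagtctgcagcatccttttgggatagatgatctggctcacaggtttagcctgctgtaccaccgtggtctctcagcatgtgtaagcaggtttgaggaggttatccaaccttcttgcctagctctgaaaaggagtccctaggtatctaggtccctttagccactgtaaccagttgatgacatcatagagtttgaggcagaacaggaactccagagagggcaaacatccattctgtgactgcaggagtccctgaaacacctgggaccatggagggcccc

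The Ldha window held 5 matches of ACGTG and 2 of GCGTG over both strands, with 2 CACGTG among them. The Slc2a1 window held 1 of each, the Pdk1 window 2 of GCGTG, and the Hk1 window none. Where a gene has a second window, the upstream one is shown, and the counts differ between windows of the same gene. The second Pdk1 window (chr2:71874654-71874953) held none, and windows of members called lower at d2 held matches too, 4 of GCGTG for Pfkp and 1 of ACGTG for Aldoa. RefSeq gives 15 windows for 9 of the members, all but Slc2a3, and 11 of the 15 held ACGTG or GCGTG, with the 1 Aldoa match lying in 2 windows that overlap. The second Hk1 window (chr10:62340372-62340671) held 2 of ACGTG and 3 of GCGTG, and the second Ldha window (chr7:46846832-46847131) held 2 of GCGTG. Of all 32851 promoter windows in the same table, 43.8% held ACGTG or GCGTG, 19.6% held ACGTG, 32.4% held GCGTG and 7.15% held CACGTG. These are matches of letters in a window, not binding sites.

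Glucose transporters changed order during differentiation. Slc2a3 (ENSMUSG00000003153, chr6:122727809-122801640, minus strand), the high-affinity transporter of neurons and early embryos, was at 1062 CPM in shLacZ at d0, and at 166, 951, 3271, 3597, 3268 and 2264 CPM on the following days from d2 to d12. In libraries labelled shDis3l2 it was at 729 CPM at d0, then 154, 418, 1753, 1309, 1046 and 907 CPM. Both lines therefore had a trough at d2 and a peak at d6 or d8, and shDis3l2 was the lower library on all 7 days. Slc2a1 (ENSMUSG00000028645, chr4:119108711-119137983, plus strand), the broadly expressed basal transporter, was at 208, 620, 391, 592, 637, 644 and 724 CPM in shLacZ over the same days. In shDis3l2 it was at 114, 678, 446, 1422, 570, 338 and 331 CPM. Its highest value, at d6 in shDis3l2, was 2.40-fold the shLacZ level (2.33 to 2.47), while at d12 the ratio was 0.457 (0.438 to 0.477).

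The hexokinases went separate ways. Hk1 (ENSMUSG00000037012, chr10:62268855-62379908, minus strand), the housekeeping hexokinase, was at 173 CPM in shLacZ at d0 and at 22.0, 16.6, 17.5, 21.3, 23.4 and 37.7 CPM from d2 to d12. In shDis3l2 it was at 131 CPM at d0 and then at 23.8, 14.1, 24.3, 42.2, 45.8 and 61.5 CPM. Hk1 thus lost most of its level by d2 in both lines, and from d6 on the shDis3l2 library was the higher of each pair. Hk2 (ENSMUSG00000000628, chr6:82725025-82774454, minus strand), the inducible hexokinase of muscle and tumours, was at 205, 207, 186, 161, 155, 204 and 243 CPM over the 7 days in shLacZ. In shDis3l2 Hk2 was at 176, 206, 207, 107, 106, 127 and 187 CPM, and it was the lower library of the pair at d6, d8, d10 and d12.

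Among the enzymes further down the route, Pfkp (ENSMUSG00000021196, chr13:6579768-6648777, minus strand), the platelet type phosphofructokinase, had its highest level at d0 in both lines, 414 CPM for shLacZ and 249.5 CPM for shDis3l2. It was at 111, 59.3, 63.9, 49.4, 37.8 and 54.2 CPM from d2 to d12 in shLacZ and at 119.5, 46.9, 55.8, 26.7, 44.0 and 65.2 CPM in shDis3l2. Aldoa (ENSMUSG00000030695, chr7:126795234-126809108, minus strand), the main aldolase of muscle and embryo, was likewise highest at d0, with 2786 CPM for shLacZ and 2428 for shDis3l2. From d2 to d12 it was at 993, 913, 852, 944, 982 and 931 CPM in shLacZ. In shDis3l2 it was at 1194, 1208, 589, 642, 673 and 744 CPM, and it was the lower library of the pair from d6 on.

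Pgk1 (ENSMUSG00000062070, chrX:106187100-106203699, plus strand), the phosphoglycerate kinase that makes the first ATP of the pathway, went from 851 CPM at d0 to 610.1, 437, 387, 454, 439 and 487 CPM in shLacZ. In shDis3l2 it was at 712, 773, 582, 384, 287, 269 and 364 CPM. The lines were level at d6, where the ratio was 0.993 (0.950 to 1.04). Pgk1 reads are uncertain, since 53.9% of its 50-base windows in GENCODE M21 transcripts also occur in transcripts of other genes, mostly of Pgk1-rs7. The same share was 25.8% for Pkm, 9.26% for Ldha and at most 5.13% for the other members.

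Pkm (ENSMUSG00000032294, chr9:59656368-59679375, plus strand) encodes the muscle type pyruvate kinases, whose splice forms PKM1 and PKM2 are not told apart in counts per gene. It was at 1846, 3608, 2747, 2027, 1753, 1853 and 1773 CPM in shLacZ and at 1612, 3893, 3290.4, 1506, 1008, 989 and 1185 CPM in shDis3l2. Ldha (ENSMUSG00000063229, chr7:46841475-46855627, plus strand), which reduces pyruvate to lactate, was at 931, 1890.2, 1665, 1014, 1064, 1198 and 1059.9 CPM in shLacZ and at 609, 2181, 2493, 856, 492, 531 and 655 CPM in shDis3l2. Both had their highest levels at d2 or d4, and in both the shDis3l2 library was above shLacZ at d2 and d4 and below it from d6 on. Across the 14 libraries these were the most alike pair of members, with Pearson's r = 0.957 on log2(CPM + 1), as a description of libraries that share lines and days.

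Pdk1 (ENSMUSG00000006494, chr2:71873224-71903858, plus strand), which inhibits pyruvate dehydrogenase, had a sharp peak at d2. It rose from 49.3 to 211 CPM between d0 and d2 in shLacZ and then stood at 105, 47.0, 83.6, 80.1 and 86.2 CPM. In shDis3l2 it went from 30.0 to 180.3 CPM and then to 75.5, 30.9, 41.9, 46.5 and 74.9 CPM, the lower library of the pair on all 7 days.

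**Figure D1:**
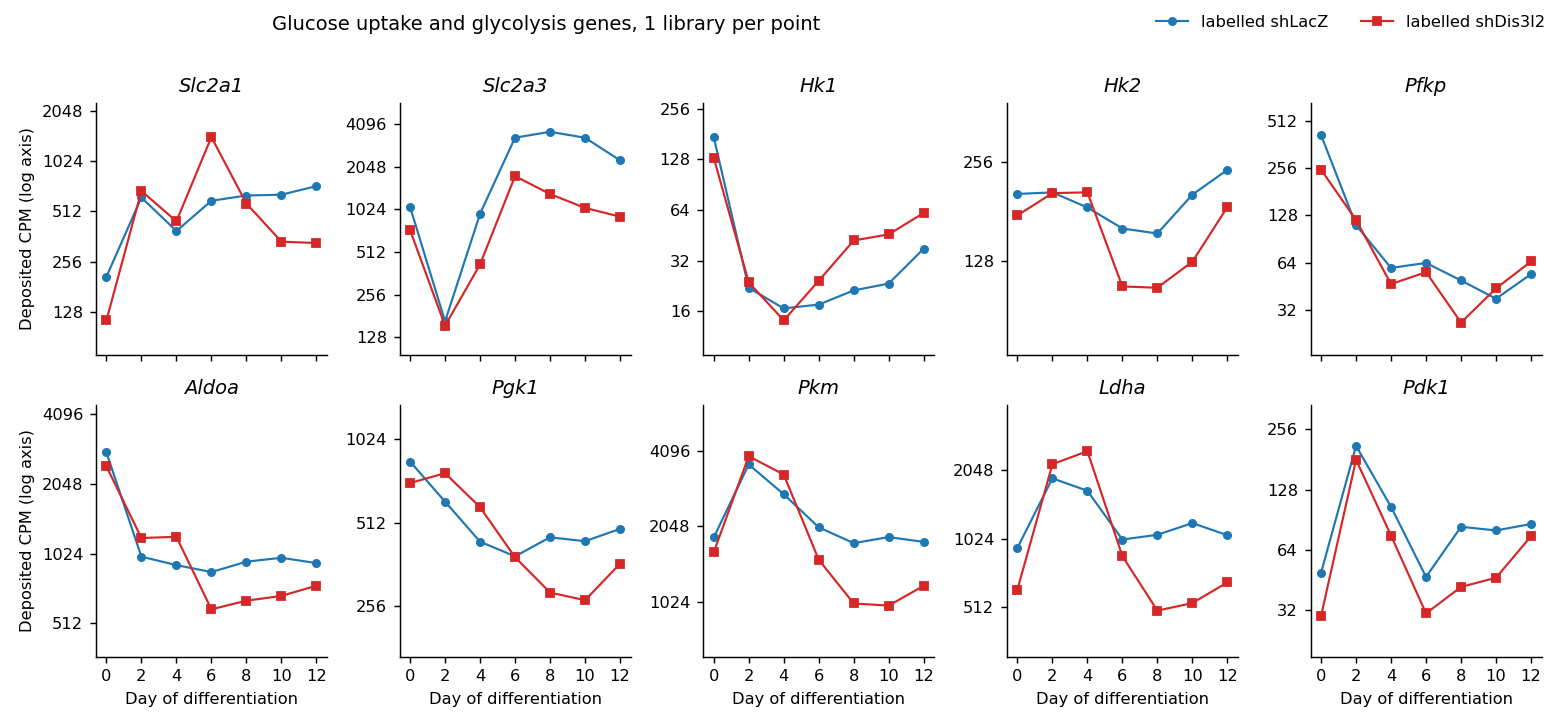
Deposited CPM (log axis, its range differing between panels) of each of the 10 genes against day of differentiation, with circles for libraries labelled shLacZ and squares for libraries labelled shDis3l2, 1 library per point and no error bar. Slc2a3 has its trough and Pdk1 its peak at d2 in both lines, and the late shDis3l2 points lie below shLacZ in most panels and above it for Hk1.

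Per length, taking counts divided by exon length and scaled to the same total over the listed genes, Pkm was among the 3 highest of the 10 members in every library, at levels from 622 to 2377. Ldha ranged from 376 to 2435 on this scale, and the transporters ranged from 66.6 to 1296 for Slc2a1 and from 65.1 to 1516 for Slc2a3. Hk1 was always among the 2 lowest, at 5.35 to 45.2. Summed, the 10 genes took 0.853% of the reads of listed genes at d0 in shLacZ and between 0.747% and 0.876% at its other days. In shDis3l2 they took 0.679% at d0, 0.940% at d2, 0.878% at d4 and 0.673% at d6, and 0.452%, 0.411% and 0.458% at d8, d10 and d12.

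The first comparison asks what changed as the cells left 2i, over both lines. From d0 to d2, 3 of the 10 members rose and 4 fell, where 34.5% of the 20050 genes tested were called higher and 31.0% lower. Pdk1 rose by 1.92 ± 0.21 (log2 fold change ± SE; edgeR adjusted p = 2.55e-05), Slc2a1 by 1.63 ± 0.48 (adjusted p = 0.0117) and Ldha by 1.03 ± 0.39 (adjusted p = 0.0400). Hk1 fell by 3.18 ± 0.31 (adjusted p = 1.23e-05), Slc2a3 by 2.86 ± 0.38 (9.28e-05), Pfkp by 1.92 ± 0.26 (0.000123) and Aldoa by 1.68 ± 0.28 (0.000390). Pkm (0.69 ± 0.30), Pgk1 (-0.59 ± 0.29) and Hk2 (-0.32 ± 0.23) were not called. The median of the members was -0.45, against 0.12 over all genes tested. Scaling moved this split, to 2 higher and 5 lower with DESeq2's size factors, where Ldha was not called, and to 4 and 4 with library totals alone, where the median of all genes was 0.71 and Pkm was also called. Without the d0 or the d2 library of shDis3l2, 1 member was called higher. With only the 4 libraries of d0 and d2, 9 members were called, among them Pkm (edgeR adjusted p = 0.00906) and Pgk1 (0.0135). Cell state markers moved in the same step, with 8 of 10 pluripotency markers lower (median -3.46) and 5 of 7 neural markers tested higher (median 3.83). Pluripotency markers summed to 5826 CPM at d0 and 1721 CPM at d2 in shLacZ, and to 4898 and 1850.1 CPM in shDis3l2. Neural markers summed to 81.9 and 119 CPM in shLacZ and to 42.0 and 119 CPM in shDis3l2, and the part of either list in the member values was not tested.

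In this step, paralogs of the members and other lists are read against the same 34.5% of genes called higher and 31.0% lower. Ldhb, the lactate dehydrogenase subunit of oxidative tissue, fell by 1.83 ± 0.29 (edgeR adjusted p = 0.000340), from 623 to 205 CPM in shLacZ and from 541 to 236 CPM in shDis3l2. Of the 17 other glycolytic enzymes, 9 fell and none rose, with a median of -0.66, and with library totals alone 6 fell and 3 rose. Gapdh was at 51.2 CPM at d0 and 73.0 CPM at d2 in shLacZ, and 25.1% of its 50-base windows occur in other genes, of which 223 share at least 1. Gapdh reads are therefore uncertain, here and in the comparisons below. Slc2a8 fell among 10 other glucose transporters. MYC family genes, of which Myc rose by 2.71 ± 0.21 (adjusted p = 3.70e-06), rose in 3 of 4 cases. Of the 8 HIF pathway genes 5 rose and 3 fell, with Hif1a up by 2.56 ± 0.22 (edgeR adjusted p = 5.49e-06). The 3 that fell were Egln2, Vhl and Egln1. Of the 15 other hypoxia-responsive genes tested 6 rose and 6 fell, with Car12 at 3.24 ± 0.53 and Ak4 at -2.95 ± 0.41. Of 15 genes of pyruvate and lactate handling 4 rose and 5 fell, with a median of -0.31, but with library totals alone 7 rose and 2 fell, with a median of 0.27. The lactate exporter Slc16a3 rose by 1.39 ± 0.30. The PFKFB list, whose enzymes set the phosphofructokinase activator, had 2 of 5 higher and 1 lower, the latter being Tigar at -2.39 ± 0.28. In the pentose phosphate pathway 2 of 7 rose and 5 fell, and in gluconeogenesis 2 of 5 tested rose and 2 fell.

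Between d2 and d6, as EBs grew in suspension, 1 member rose and 4 fell, against 19.4% of genes called higher and 19.4% lower. Slc2a3 rose by 3.89 ± 0.40 (edgeR adjusted p = 0.000102), 19.7-fold in CPM in shLacZ and 11.4-fold in shDis3l2. Pdk1 fell by 2.31 ± 0.21 (adjusted p = 5.77e-05), Ldha by 1.10 ± 0.39 (0.0493), Pkm by 1.06 ± 0.30 (0.0189) and Pfkp by 0.90 ± 0.26 (0.0207). The median was -0.69 for the members and -0.06 for all genes. Without the d2 library of shDis3l2 or either d6 library, Pdk1 was the 1 member called lower, and without the d6 library of shLacZ 2 were called higher. Among the other enzymes, 3 rose and 7 fell, with Gapdh at -1.34 ± 0.35, Eno1 at -1.14 ± 0.29 and Ldhb at -1.17 ± 0.29 among those lower. Slc16a3 fell by 2.94 ± 0.32 (adjusted p = 0.000136) and the monocarboxylate transporter Slc16a1 rose by 2.40 ± 0.33 (adjusted p = 0.000436). Slc2a2, the transporter of liver and yolk sac, was at or under 3 counts at d2 in both lines and at d6 had 2.66 CPM in shLacZ against 0.771 in shDis3l2.

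Markers of other cells moved with this step, where 19.4% of genes were called higher and 19.4% lower. All 10 visceral endoderm markers rose between d2 and d6, and their summed level was 120 CPM at d2 and 3215 CPM at d6 in shLacZ, against 84.7 and 626 CPM in shDis3l2. Of the mesenchyme markers 7 of 8 rose (median 6.13), from 29.9 to 388 CPM summed in shLacZ and from 26.5 to 1229 CPM in shDis3l2. Of the primitive erythroid markers 7 of 9 rose (median 3.28), from 4.02 to 76.0 CPM and from 3.67 to 189 CPM, and 5 of 7 neural markers tested fell (median -4.28). At d0 the visceral endoderm markers summed to 7.98 CPM in shLacZ and 6.10 CPM in shDis3l2, with Ttr and Apoa4 at or under 3 counts in both libraries. The part of cell composition in the member values was not tested, and fewer cells of a type cannot be told apart from less RNA per cell in bulk EBs.

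From d6 to d12 few members moved. Hk1 rose by 1.21 ± 0.30 (edgeR adjusted p = 0.0398) and Pdk1 by 1.07 ± 0.21 (adjusted p = 0.0182), and none was called lower, where 5.02% of genes were called higher and 2.15% lower. An unadjusted p under 0.05 was met by 3 members, the third being Hk2 at 0.68 ± 0.23, and DESeq2 also called none lower. No member was called when either d6 library or the d12 library of shDis3l2 was left out, and 1 was called without either d2 library or the d12 library of shLacZ.

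**Figure D2:**
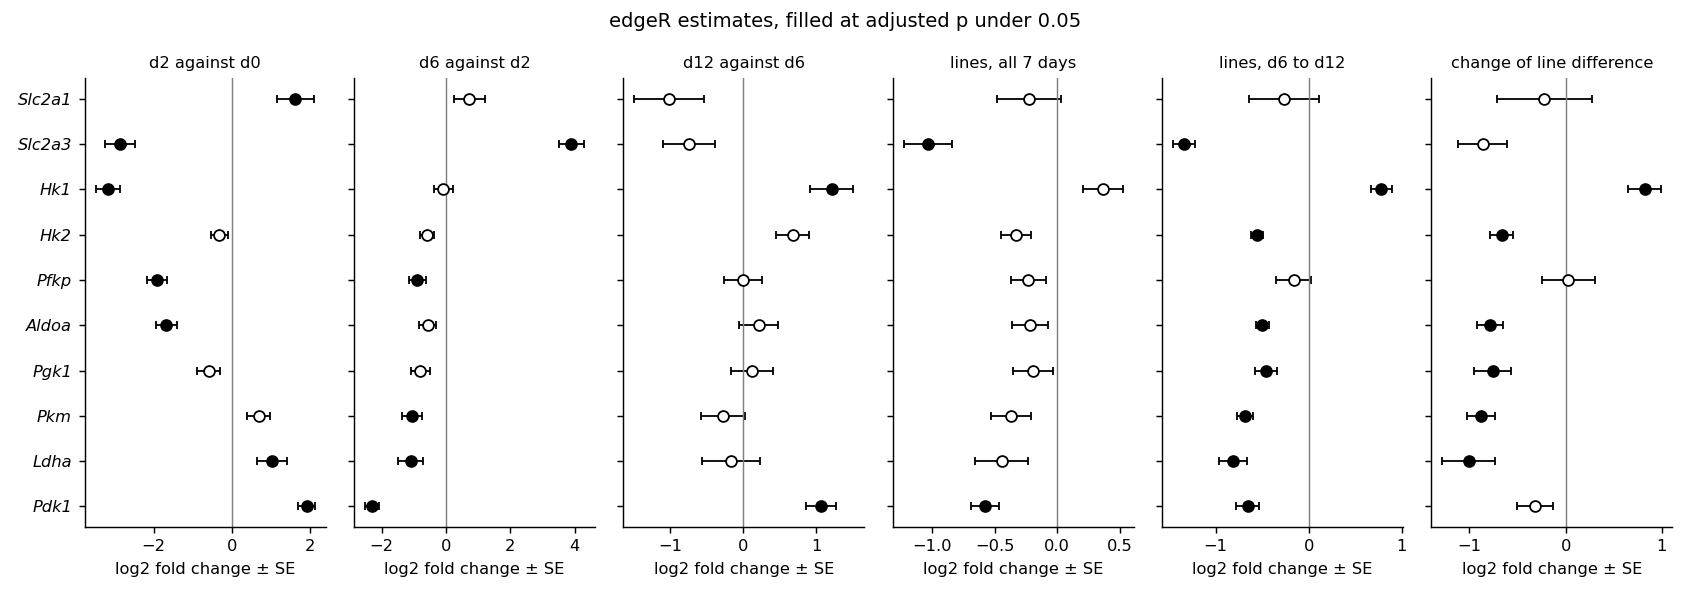
Log2 fold change (horizontal axis, its range differing between panels) with SE from edgeR's quasi-likelihood test for the 10 genes in 6 comparisons, with filled circles for an adjusted p under 0.05 over all genes tested. The d2 against d0 panel has 3 filled circles to the right and 4 to the left of 0, and the panel of the lines over d6 to d12 has 1 to the right and 7 to the left.

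The comparison of the lines asks how depletion of Dis3l2 bears on differentiation. Within single days, a member was counted as different where the CPM ratio reached 1.5-fold and either library had 1 CPM or more, which is no test. At d0, 4 of 10 members (Slc2a1, Pfkp, Ldha and Pdk1) were at least 1.5-fold lower in shDis3l2 and none was higher, where 26.1% of genes were lower and 5.22% higher. This count fell to 2 with TMM scaling. At d2 the log2 differences of the members lay within -0.23 and 0.34. At d4 they ran from -1.19 for Slc2a3 to 0.58 for Ldha.

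At d6, Slc2a1 was higher and Slc2a3, Hk2 and Pdk1 were lower by at least 1.5-fold, against 14.2% of genes higher and 15.4% lower. At d8, Hk1 was higher and 6 members were lower, against 20.1% and 16.2%. At d10, Hk1 was higher and 7 members were lower, against 22.2% and 17.7%. At d12, Hk1 was higher and Slc2a1, Slc2a3 and Ldha were lower, against 20.8% and 10.4%. The lowest ratio of a member was that of Slc2a3 at d10, 0.320 (0.314 to 0.326), from 24210 counts in shLacZ and 19788 in shDis3l2. The highest from d8 on was that of Hk1 at d8, 1.98 (1.74 to 2.27). Ldha was at 0.462 of the shLacZ level at d8 and 0.443 at d10, and Pkm at 0.575 and 0.533. As stated, Dis3l2 reads were level between the lines on these same 2 days.

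**Figure D3:**
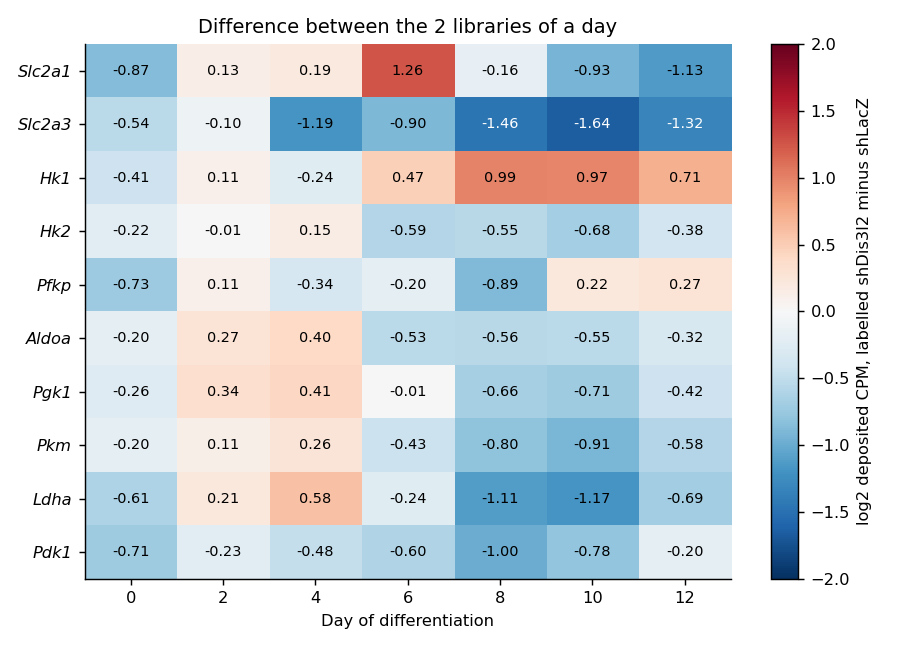
Difference of log2 deposited CPM between the 2 libraries of each day, labelled shDis3l2 minus shLacZ, for the 10 genes (rows) at the 7 days (columns), with blue for lower and red for higher. Slc2a3 is at -1.64 at d10 and Hk1 at 0.99 at d8, and Ldha goes from 0.58 at d4 to -1.17 at d10.

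Over all 7 days with day as a block, Slc2a3 was lower in shDis3l2 by -1.03 ± 0.19 on the log2 scale (edgeR adjusted p = 0.0229) and Pdk1 by -0.58 ± 0.11 (adjusted p = 0.0236). None was higher, and 5 members met an unadjusted p under 0.05, where 1.91% of genes were called higher and 3.82% lower. Each was the lower library on 7 of 7 days, but neither was called without d6, d8, d10 or d12, and with d8 and d10 both left out edgeR called none of the 19249 genes tested, with adjusted p = 0.283 for Slc2a3 and 0.280 for Pdk1. DESeq2 also called 2.

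Over d6, d8, d10 and d12, 7 members were called lower in shDis3l2 and 1 higher, where 18.7% of the 17164 genes tested were lower and 19.6% higher. The members had a median of -0.53, against 0.02 over all genes. Slc2a3 was lower by -1.34 ± 0.12 (edgeR adjusted p = 0.000632), Ldha by -0.82 ± 0.15 (0.00671), Pkm by -0.69 ± 0.09 (0.00193), Pdk1 by -0.66 ± 0.13 (0.00739), Hk2 by -0.56 ± 0.07 (0.00155), Aldoa by -0.50 ± 0.07 (0.00198) and Pgk1 by -0.46 ± 0.12 (0.0219). Hk1 was higher by 0.78 ± 0.11 (adjusted p = 0.00275). Slc2a1 (-0.27 ± 0.37), with 1 of 4 days higher in shDis3l2, and Pfkp (-0.16 ± 0.19), with 2 of 4 days higher, were not called. Without d6, the day on which Slc2a1 was higher in shDis3l2, Slc2a1 was called lower at -0.75 (edgeR adjusted p = 0.0149), which made 8 members lower. Without d8, d10 or d12, Pgk1 was not called.

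With d8 and d10 both left out, an alternative chosen after the data were seen, edgeR called none of the 15950 genes tested and so no member, and 6 members met an unadjusted p under 0.05. All 8 kept their sign in that fit, with Slc2a3 at -1.12 (edgeR adjusted p = 0.123) and Hk1 at 0.58 (adjusted p = 0.177). That fit holds 4 libraries.

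The other lists of the route differed in their counts over d6 to d12, which are read against the same 18.7% of genes lower and 19.6% higher and were not tested against the members. Of 17 other glycolytic enzymes 8 were lower and 2 higher, with a median of -0.35, and among the lower were the phosphofructokinase Pfkl (-0.80 ± 0.10), Gapdh (-0.72 ± 0.17), the enolase Eno1 (-0.69 ± 0.11), Pgam1 (-0.55 ± 0.09), Tpi1 (-0.35 ± 0.09) and Gpi1 (-0.26 ± 0.09). Eno1 was at 433, 378, 386 and 353 CPM from d6 to d12 in shLacZ and at 356, 204, 211 and 221 CPM in shDis3l2, and 26.0% of its 50-base windows occur in other genes. In the pentose phosphate pathway 6 of 7 genes were lower and none higher, with a median of -0.45, and Rpe had the largest estimate at -0.61 ± 0.08. With library totals alone the pathway had 6 lower and the other glycolytic enzymes 7.

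Of 9 other glucose transporters tested, 3 were higher and 2 lower, with a median of 1.06. The insulin-responsive transporter Slc2a4 was higher by 2.01 ± 0.28 (edgeR adjusted p = 0.00224), at 6.30, 15.1, 19.0 and 20.1 CPM against 2.997, 4.469, 3.003 and 3.428 CPM. Slc2a2 was lower by -1.97 ± 0.20 (adjusted p = 0.000904), at 0.771, 2.12, 1.49 and 1.89 CPM against 2.66, 9.59, 5.03 and 7.60 CPM. The shDis3l2 library was the higher of each pair for Slc2a4 and the lower for Slc2a2. In pyruvate and lactate handling, with a median of 0.14, 5 of 15 were higher and 2 lower, with Slc16a1 at -1.03 ± 0.15. The largest estimates among the higher were, in order, those of Pdp1, Slc16a7, Pdk4 (1.13 ± 0.36) and Pdk3. Of the PFKFB list Pfkfb4 (0.68 ± 0.15) and Pfkfb3 (0.59 ± 0.14) were higher and Tigar (-0.76 ± 0.12) was lower. In gluconeogenesis 1 of 4 tested was higher and 1 lower.

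Lists of HIF pathway, hypoxia-responsive and MYC family genes were counted in the same way, against the same 18.7% of genes lower and 19.6% higher. Of 8 HIF pathway genes 3 were higher, namely Hif3a, Hif1an and Vhl, and 1 was lower, Epas1 (-0.88 ± 0.08; edgeR adjusted p = 0.000611). Of 15 other hypoxia-responsive genes 6 were lower and none higher, with a median of -0.19. In the MYC family 2 of 4 were lower and none higher, namely Mycl and Mycn (-0.70 ± 0.17), while Myc was not called. Hif1a (0.18 ± 0.07) and Vegfa (-0.11 ± 0.11), named after their values were seen, were not called. The part of these genes in the member differences was not tested.

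Marker lists of cell types moved with the same days, where 18.7% of genes were called lower and 19.6% higher. From d6 to d12 the summed visceral endoderm markers lay between 3215 and 7761 CPM in shLacZ and between 626 and 2195 CPM in shDis3l2, and 10 of 10 were called lower. Pluripotency markers summed to between 690 and 801 CPM and between 233 and 550 CPM, with 7 of 10 lower. Mesenchyme markers summed to between 388 and 2119 CPM in shLacZ and between 1229 and 18111 CPM in shDis3l2, with 7 of 8 higher, and 7 of 7 cardiomyocyte markers tested were higher, at 24.5 to 47.7 CPM against 45.0 to 238 CPM. Primitive erythroid markers, which peaked at d8 at 1095 and 1838 CPM, had 5 of 9 higher, and 3 of 6 neural markers tested were lower. Their part in the member differences was not tested.

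**Figure D4:**
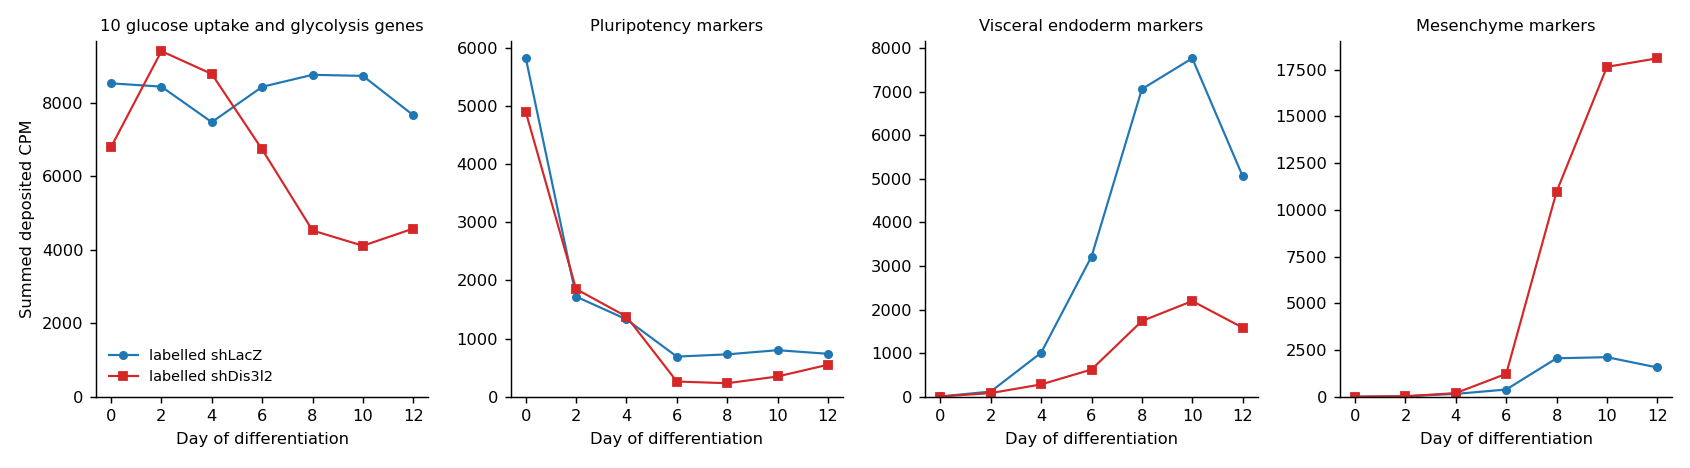
Summed deposited CPM of the 10 genes and of 3 marker lists against day, with circles for libraries labelled shLacZ and squares for libraries labelled shDis3l2, 1 library per point. The 10 genes sum at d8 to 8758 CPM for shLacZ and 4524 for shDis3l2, when the mesenchyme markers are at 2060 and 10979 CPM.

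Whether the line difference itself changed with time was tested as an interaction, the difference over d6 to d12 minus that over d0 to d4. Of the 10 members 5 were called lower and 1 higher, where 5.24% of genes were called lower and 4.85% higher. Ldha changed by -1.01 ± 0.27 on the log2 scale (edgeR adjusted p = 0.0412), Pkm by -0.88 ± 0.15 (0.00908), Aldoa by -0.79 ± 0.13 (0.00932), Pgk1 by -0.76 ± 0.19 (0.0345), Hk2 by -0.66 ± 0.12 (0.0108) and Hk1 by 0.82 ± 0.18 (0.0180). Slc2a3 was at -0.86 ± 0.26 (adjusted p = 0.0583), so a change of its difference between the periods was not called, and Pdk1 was at -0.32 ± 0.19 (0.305). With library totals alone, 2 were lower and 1 higher, since Ldha, Pgk1 and Hk2 were not called. Ldha and Pgk1 were also not called without d2, d4, d8, d10 or d12, nor Hk1 without d0, d8 or d10, and with d8 and d10 both left out no member was called, with 5 at an unadjusted p under 0.05.

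Ratios of paralogs within a library do not depend on scaling between libraries. Per length, Slc2a3 to Slc2a1 was 2.47 at d0, 0.129 at d2, 1.18 at d4 and 2.67, 2.73, 2.46 and 1.51 from d6 to d12 in shLacZ. In shDis3l2 it was 3.09, 0.110, 0.453, 0.596, 1.11, 1.4997 and 1.33. It was thus lower in shDis3l2 on 6 of 7 days, by a mean of -0.81 on the log2 scale (SD 0.86, n = 7 days; exact two-sided sign-flip permutation p = 0.0625, adjusted over the 3 ratios to 0.164). The smallest p the 7 days allow is 0.0156. Without d0 the exact permutation p was 0.0312, the smallest that the remaining days allow and not adjusted over the 3 ratios.

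Hk2 to Hk1 was 1.69 and 1.92 at d0 and 13.4 and 12.4 at d2 in shLacZ and shDis3l2. From d6 to d12 it was 13.1, 10.4, 12.5 and 9.21 in shLacZ and 6.30, 3.59, 3.97 and 4.34 in shDis3l2. The shDis3l2 ratio was the lower on each of these days. Over all 7 days the mean log2 difference was -0.70 (SD 0.84), lower on 5 of 7 days (exact permutation p = 0.109, adjusted 0.164). Ldha to Ldhb rose from 0.709 and 0.534 at d0 to 4.38 and 4.39 at d2. It was 4.37, 4.16, 4.23, 5.49 and 6.24 from d4 to d12 in shLacZ and 6.09, 5.32, 3.89, 3.14 and 3.28 in shDis3l2, higher in shDis3l2 on 3 of all 7 days and lower on 4. Its mean difference over the days was -0.20 (SD 0.54; exact permutation p = 0.344, adjusted 0.344).

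**Figure D5:**
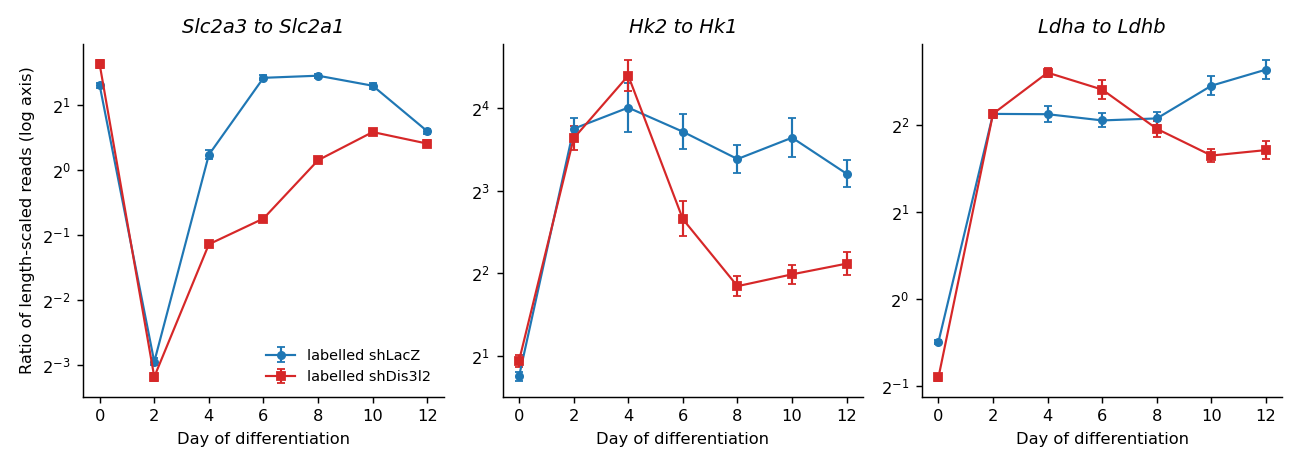
Ratio of length-scaled reads of Slc2a3 to Slc2a1, Hk2 to Hk1 and Ldha to Ldhb (log axis, its range differing between panels) against day, with circles for libraries labelled shLacZ, squares for libraries labelled shDis3l2 and bars for 95% Clopper-Pearson intervals of counting error. Slc2a3 to Slc2a1 drops to 0.129 and 0.110 at d2, and Hk2 to Hk1 is lower in shDis3l2 on each day from d6 on.

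The members did not form 1 pattern across the libraries. Beside Ldha and Pkm, Aldoa and Pfkp had r = 0.865 and Pgk1 and Aldoa r = 0.854 over the 14 libraries on log2(CPM + 1). Slc2a1 and Slc2a3 had r = 0.170 with each other, and r = -0.42 and -0.56 with the mean of the other 9 members. Of 11749 other genes with at least 10 CPM in 1 library, those closest to the mean of the 10 members were Gls2 (r = 0.917), Dhps (0.906), C77080 (0.903), D030056L22Rik (0.899) and Cyb561 (0.893). Gls2, a liver type glutaminase, was at 33.7 CPM at d0 in shLacZ and at 6.40 CPM at d8 in shDis3l2. These values describe libraries that share lines, days and depth differences, and say nothing of shared control.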

How the data were processed

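PolyA RNA of the shLacZ and shDis3l2 lines was sequenced by the authors at 7 days with 1 library each. The authors used Subread for alignment to GRCm38 and featureCounts for counting, and the deposited counts of 50686 genes are not normalized. The deposited CPM of 16181 genes were made by the authors and equal the count plus 0.25 scaled to the library's total over those genes (largest relative deviation 4.996e-15), without scaling between libraries. Columns named shm5 were taken as shDis3l2 after the study's own headings of the same columns.

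Tests on counts used R 4.3.3 and edgeR 4.0.16 (TMM, filterByExpr, quasi-likelihood F test, Benjamini-Hochberg), and the SE is the absolute log2 fold change over the square root of F. DESeq2 1.42.0, other scalings, no filter, protein-coding genes alone and leaving out libraries or days were alternatives. The fits were run on simulated counts with known changes. Those counts were drawn independently at a fixed dispersion and without other day changes, so they do not show how p-values behave in this series. Ratios of 2 libraries have exact Clopper-Pearson intervals at 95%, and Python 3.11.15 with pandas 2.3.3, scipy 1.17.1 and matplotlib 3.10.9 was used. Shared 50-base windows were counted on both strands over GENCODE M21 transcripts. Depth ran from 7178712 to 39888099 counts, and 3 counts equal 0.0960 to 0.474 CPM. Named genes were all 10 members, up to 4 called genes per list by size and paralogs of members, with the glycolytic enzymes Gapdh, Eno1, Tpi1, Gpi1 and Pgam1. The members and lists were chosen with earlier results of these data known. Strand of the counting is not given in the sources used here.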

Additional observations from a re-analysis of the deposited data

Results flagged for a closer look

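Between d0 to d4 and d6 to d12 the difference of the libraries labelled shDis3l2 from shLacZ changed for 6 of the 10 genes in edgeR's interaction test, on the log2 scale, where 5.24% of all genes tested were called lower and 4.85% higher. The change was 0.82 for Hk1, -0.66 for Hk2, -0.79 for Aldoa, -0.76 for Pgk1, -0.88 for Pkm and -1.01 for Ldha. From d6 to d12 Hk1 was above the shLacZ level on each day and the other 5 below it, except that Pgk1 was level at d6 (ratio 0.993). Ldha and Pgk1 were each called under 6 of 13 alternatives, and none of the 6 was called without d8 and d10. Cell type markers and the Dis3l2 reads of the libraries changed over the same days, whose part was not tested. Samples that stand apart within a group could not be looked for, since each line and day has 1 library.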

How the results depend on the processing

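Of 60 values (10 genes in 6 comparisons), 30 were called, and 7 of these were called under every planned and added alternative run for them. All 7 were comparisons between days, Aldoa, Hk1, Pdk1, Pfkp and Slc2a3 for d2 against d0 and Pdk1 and Slc2a3 for d6 against d2. No called line difference stayed called without d8 and d10, an alternative run for the line comparisons only. No called value changed sign under any of them, and 21 uncalled values had the other sign in an alternative. Counts of called members moved past 1.5 times in these cases. For d12 against d6, 1 was higher with library totals alone and 0 with only the 4 libraries of d6 and d12, where 4 had an unadjusted p under 0.05. For the change of the line difference, 2 were lower with library totals alone. Without d8 and d10, chosen after the data were seen, edgeR called 0 lower over the 7 days, 0 lower and 0 higher over d6 to d12, and 0 lower and 0 higher for the change, with 2, 6 and 5 members at an unadjusted p under 0.05. That edgeR fit called 0, 0 and 24 of all genes. At d0, 2 members were at least 1.5-fold lower with TMM-scaled CPM.

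Leaving out 1 library or day, members called higher and lower ranged from 1 to 4 and from 4 to 5 for d2 against d0, from 1 to 2 and from 1 to 6 for d6 against d2, and from 0 to 2 higher for d12 against d6. Over the 7 days 0 to 2 were lower, over d6 to d12 6 to 8 were lower and 1 was higher, and for the change 0 to 1 were higher and 3 to 6 lower. The mean log2 difference of Slc2a3 to Slc2a1 ranged from -0.996 to -0.581, with an unadjusted exact permutation p under 0.05 only without d0. The d0 libraries had TMM factors of 0.711 and 0.623. The labels give no replicate numbers, so the 2 libraries of a day were paired by day alone, in the line comparisons and the paralog ratios. With 1 library per line and day, counting intervals do not cover the spread between cultures, whatever the depth.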
